A study of Mus musculus with 9 samples.

Results

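The transcripts of Trp53, which encodes the transcription factor p53, and of 9 known p53-activated genes were followed in mouse pro-B cultures. These cultures also held marker RNA of other cell types, as given below. The genes were taken by symbol from the 2 deposited expression tables and were Trp53, Mdm2, Cdkn1a, Gadd45a, Ccng1, Bbc3, Pmaip1, Phlda3, Trp53inp1 and Sesn2, which makes 10 of 23279 mouse rows. All 10 were among the 10878 tested rows, those averaging 1 FPKM or more over the libraries. FPKM is a fragment count scaled by transcript length and sequencing depth, so levels can be compared between genes. RNA sequencing covered 9 libraries in 3 groups of 3. The Ts1Rhr group came from mice that carry an additional copy of a chromosome segment containing Hmgn1, on an FVB × C57BL/6 F1 background. The HMGN1-overexpressing group came from C57BL/6 mice that overexpress Hmgn1, a gene for a nucleosome-binding protein, under a promoter that the labels do not name. The wild-type group came from littermates whose background the labels do not name, and effects of strain and of genotype cannot be told apart. In all 3 groups the mice were 6 to 8 weeks old, their marrow was grown with interleukin-7 in methylcellulose, and the colonies were pooled after 7 days. Synthetic ERCC spike-in RNA went into every RNA sample for scaling per cell. The cell type label carries the name Ts1Rhr for all 9 libraries, and groups were taken from the genotype label. The labels call the 3 libraries of a group biological replicates without tying them to animals, and the p-values rest on the spread among these libraries.

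The p53 protein is held low in unstressed cells by Mdm2, a ubiquitin ligase whose gene is itself a p53 target, and DNA damage or other stress stabilises it mainly at the protein level. Once active, p53 switches on genes that stop the cell cycle, such as Cdkn1a, and genes that start cell death, such as Bbc3 and Pmaip1. Pro-B cells cut their own immunoglobulin genes while they rearrange them, and p53 is known to remove cells in which such breaks persist.

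The raw FPKM table and a second table that the authors normalised further, probably with the spike-ins, were both used. Library medians lay between 3.66 and 3.69 on the log2 scale in the raw table and between 3.39 and 4.09 in the normalised one. The median tested gene accordingly differed by 0.12 (Ts1Rhr against wild type) and 0.21 (HMGN1 overexpression against wild type) on the log2 scale in the normalised table, against 0.01 for both in the raw table. Hmgn1 itself was at 125.3 to 126.7 raw FPKM in Ts1Rhr, 71.9 to 77.2 in HMGN1-overexpressing and 58.5 to 67.3 in wild-type libraries, without overlap. The cultures were not pure. The 12 macrophage and monocyte markers together reached 15970 to 18310 raw FPKM in Ts1Rhr, 14600 to 30430 in HMGN1-overexpressing and 25130 to 37730 in wild-type libraries. Most of each sum was Lyz2 alone, at 13240 to 15340, 11930 to 25080 and 20220 to 30710 raw FPKM in the same order. The 14 pro-B markers summed to 1540 to 1917, 1571 to 1993 and 1168 to 1520 raw FPKM in the same order. The 9 neutrophil markers summed to 63.1 to 159.8, 56.4 to 201.4 and 145.9 to 242.4. The 8 stromal markers summed to 6.97 to 16.1, 5.22 to 14.8 and 69.1 to 103.9. Of these stromal genes Col1a1 and Cxcl12 stayed under 0.5 raw FPKM in every Ts1Rhr and every HMGN1-overexpressing library. The 6 erythroid markers summed to at most 0.512 and the 8 T and NK markers to at most 5.16 raw FPKM in any library. In bulk RNA, fewer cells of a type and less RNA per cell cannot be told apart, and the part of these marker differences in the results on p53 genes was not tested. Ts1Rhr replicate 3 alone had Y-linked Ddx3y RNA, at 41.8 raw FPKM, and little Xist, at 0.443 raw FPKM, where the other 8 libraries had 94.2 to 193.0.

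All 10 genes were detected in every library, and their levels fell into an upper and a lower set. By mean raw FPKM over the 9 libraries the order was Ccng1 (81.7), Trp53inp1 (67.6), Mdm2 (48.6), Cdkn1a (42.7), Trp53 (33.8), Gadd45a (11.4), Phlda3 (8.26), Pmaip1 (7.48), Sesn2 (4.12) and Bbc3 (2.19). The normalised table gave the same order. The one clear step lay between Trp53 and Gadd45a, whose ranges did not overlap in either table. Pmaip1 and Sesn2 did not overlap in the raw table either, at 5.43 to 10.15 and 3.43 to 4.70 raw FPKM, but did in the normalised one. All other neighbours overlapped, each gene being above the next in 7 or 8 of 9 libraries in the raw table. Thus the arrest gene Cdkn1a stood above 82.2% of the tested genes in mean raw FPKM, whereas Bbc3, which encodes the death-promoting protein Puma, stood above 9.34%.

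**Figure D1:**
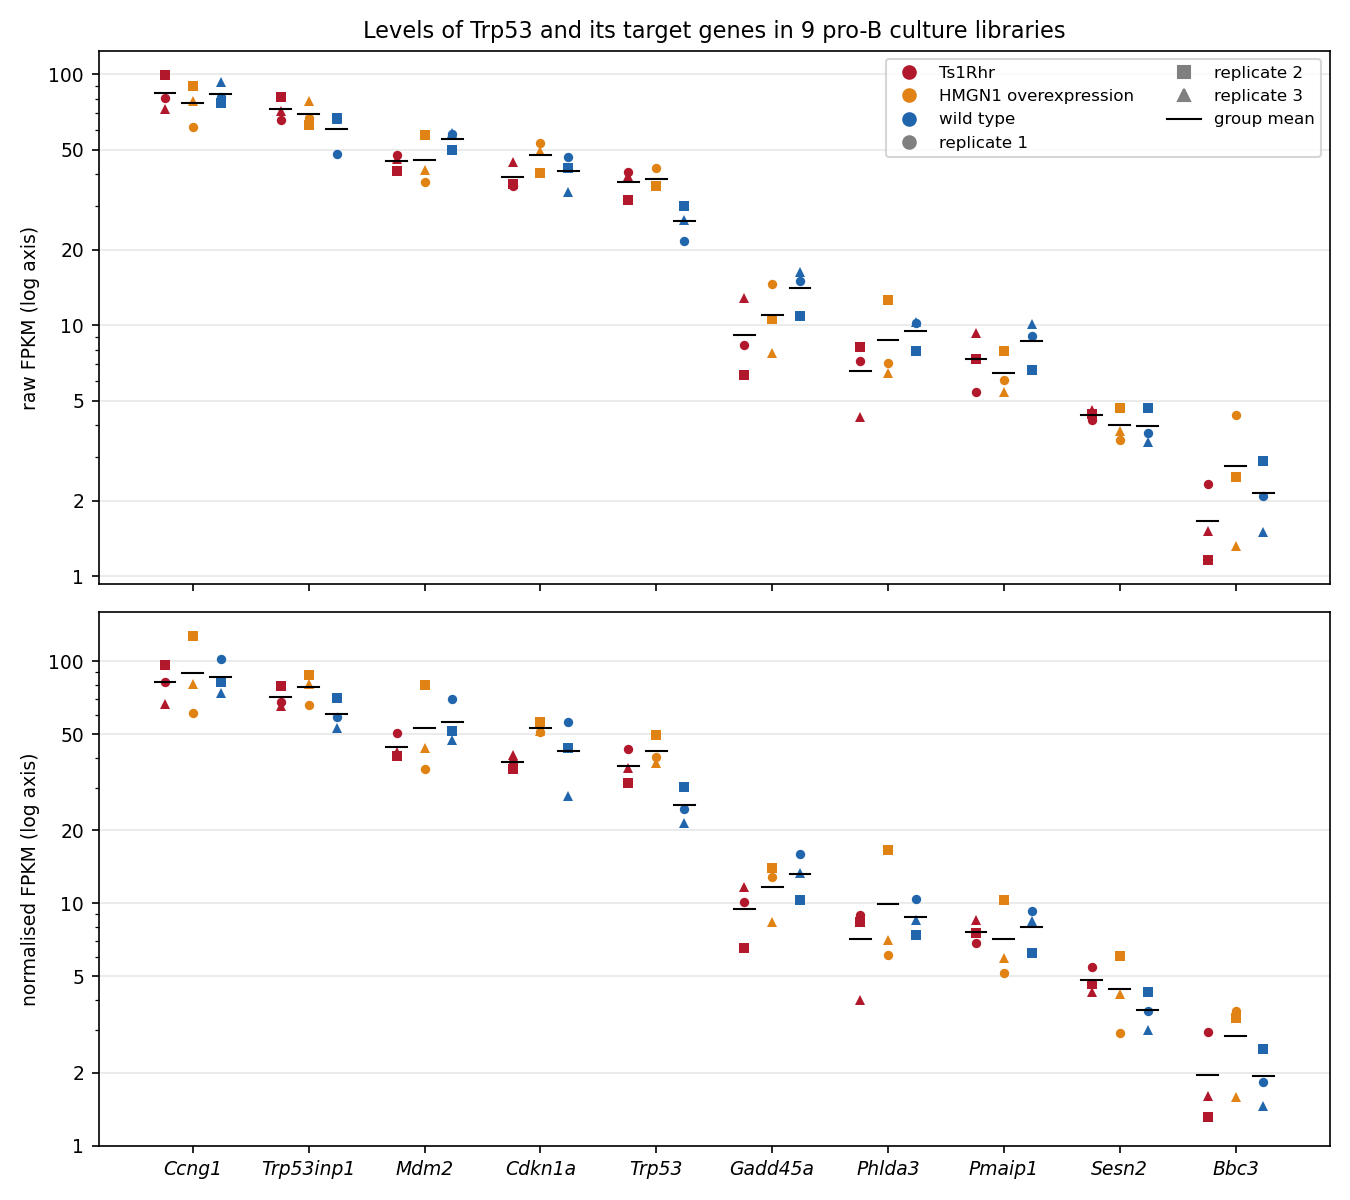
Raw (upper panel) and normalised (lower panel) FPKM of Trp53 and 9 target genes on log axes, with 1 symbol per library, colour for the group, shape for the replicate and a bar at the group mean. Trp53 lies at 31.5 to 42.6 raw FPKM in the 6 mutant libraries and at 21.7 to 29.95 in the 3 wild-type libraries, while the other genes mostly overlap between groups.

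Sequences upstream of the genes are shown for the members whose promoter holds the p53 decamer, the 10-letter motif to which a p53 dimer binds. RefSeq promoters (build GRCm38.p6, not the build of the expression files) of 8 of the 10 genes were searched. The search covered the 250 bases before each start on both strands, the motif being its own reverse complement. Capitals mark the matched letters, and each sequence reads 5′ to 3′ on the strand of the gene.

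Trp53 (chr11:69580274-69580303, plus strand): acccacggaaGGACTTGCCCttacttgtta

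Mdm2 (chr10:117710925-117710954, minus strand): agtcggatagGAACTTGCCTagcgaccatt

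Gadd45a (chr6:67037428-67037457, minus strand): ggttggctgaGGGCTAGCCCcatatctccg

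Ccng1 (chr11:40755452-40755491, minus strand): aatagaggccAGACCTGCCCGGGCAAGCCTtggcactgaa

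Cdkn1a (chr17:29090901-29090952, plus strand): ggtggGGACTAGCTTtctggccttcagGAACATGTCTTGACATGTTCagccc

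A decamer was thus present in 5 of the 11 promoters of the 8 members searched, each in a different gene, against 7.13% of the 32851 promoters searched. Promoters of a single chromosome were left out of the search. A full site means a tandem pair of decamers (20 letters) without a spacer and with at most 2 mismatches outside the central C and G of each. It was present in 0.271% of the promoters searched and in Ccng1 and Cdkn1a among the members. In Cdkn1a the matches precede the upstream one of 2 listed starts, which lies 2790 bases before the other, and the capitals show the separate decamer and then the full site. In Ccng1 they show the full site. The matches describe letters in these windows and were not measured as binding.

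The comparison of Ts1Rhr with wild type asks whether the trisomic segment is accompanied by a different p53 programme. No gene of the 10 passed the test in either table, and Trp53 itself had the smallest limma p in both. In the raw table the log2 fold changes of Gadd45a and Phlda3, given below, were farther from 0, with overlapping libraries. Trp53 was at 40.7, 31.5 and 39.4 raw FPKM in the Ts1Rhr libraries, against 21.65, 29.95 and 26.4 raw FPKM in the wild-type libraries. In the normalised table it was at 43.5, 31.3 and 36.3 in Ts1Rhr libraries, against 24.55, 30.3 and 21.55 in wild-type libraries. Every Ts1Rhr library was above every wild-type library in both tables, although Ts1Rhr replicate 2 and wild-type replicate 2 lay close together. The means were 37.2 ± 4.99 raw FPKM in Ts1Rhr and 26.0 ± 4.16 in wild type (SD, n = 3 each), a log2 fold change of 0.52 with a 95% interval of 0.16 to 0.87 and a limma adjusted p of 0.0653. The normalised log2 fold change was 0.54 (0.04 to 1.05), or 0.42 above the median gene, with a limma adjusted p of 0.224. When each library of the raw table was rescaled to the same sum, the log2 fold change was 0.70 and the limma adjusted p 0.0469; over all 17 alternatives in the raw table the adjusted p ran between 0.0469 and 0.508.

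Mdm2, the ubiquitin ligase that restrains p53, stood on the other side. It was at 47.8, 41.3 and 45.8 raw FPKM in Ts1Rhr libraries, against 57.7, 49.75 and 58.6 raw FPKM in wild-type libraries. The raw values did not overlap, all Ts1Rhr libraries being lower. In the normalised table Mdm2 was at 50.3, 40.7 and 42.0 in Ts1Rhr libraries, against 69.7, 51.6 and 47.1 in wild-type libraries, and there Ts1Rhr replicate 1 lay above wild-type replicate 3. The log2 fold change was -0.30 (95% interval -0.67 to 0.07, limma adjusted p = 0.251) in the raw table and -0.33 (-0.94 to 0.29, limma adjusted p = 0.544) in the normalised table.

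Among the genes that slow or stop the cell cycle, Cdkn1a, which encodes the kinase inhibitor p21, was at 36.0, 36.45 and 44.8 raw FPKM in Ts1Rhr libraries, against 47.0, 42.5 and 34.1 raw FPKM in wild-type libraries. The range of the wild-type libraries enclosed all 3 Ts1Rhr values. Its log2 fold change was -0.07 (-0.44 to 0.29, limma adjusted p = 0.797) in the raw table and -0.08 (-0.63 to 0.47) in the normalised one. Gadd45a, a growth arrest gene induced by DNA damage, was at 8.36, 6.35 and 12.8 raw FPKM in Ts1Rhr libraries, against 15.1, 10.85 and 16.3 raw FPKM in wild-type libraries. Ts1Rhr replicate 3 lay above wild-type replicate 2, so the groups overlapped. The log2 fold change of Gadd45a was -0.65 (-1.28 to -0.02) in the raw table, with an unadjusted p of 0.044 and a limma adjusted p of 0.15, and -0.50 (-1.10 to 0.10) in the normalised table. Ccng1, which encodes cyclin G1, a partner of the phosphatase that acts on Mdm2, averaged 84.3 ± 13.6 raw FPKM in Ts1Rhr and 83.9 ± 8.35 in wild type (SD, n = 3 each), with overlapping libraries.

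The genes of the death and survival arm did not separate. Bbc3 ranged over 1.16 to 2.32 raw FPKM in Ts1Rhr and 1.51 to 2.87 in wild type. Pmaip1, which encodes the death-promoting protein Noxa, ranged over 5.43 to 9.31 raw FPKM in Ts1Rhr and 6.66 to 10.15 in wild type. Phlda3, whose product restrains the survival kinase Akt, ranged over 4.30 to 8.18 raw FPKM in Ts1Rhr and 7.89 to 10.3 in wild type, and its lowest library of all 9 was Ts1Rhr replicate 3. All 3 death-related genes thus overlapped, with raw log2 fold changes of -0.36 (-1.325 to 0.60), -0.24 (-0.76 to 0.28) and -0.56 (-1.19 to 0.07). Trp53inp1, a stress-induced cofactor of p53, was at 65.8 to 81.2 raw FPKM in Ts1Rhr and 48.1 to 67.0 in wild type, a log2 fold change of 0.28 (-0.08 to 0.64). Sesn2, a sestrin that restrains mTOR signalling under stress, was at 4.20 to 4.60 raw FPKM in Ts1Rhr and 3.43 to 4.70 in wild type. Sesn2 overlapped in the raw table only, for in the normalised one the lowest Ts1Rhr library, at 4.305, was just above the highest wild-type library, at 4.298.

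By count, limma called 0 of the 10 genes in either table, against 0.57% of all tested genes in the normalised table (46 higher and 16 lower) and 8.85% in the raw table (467 higher and 496 lower). At an unadjusted p under 0.05 there were 1 gene (Trp53; 19.5% of all tested genes) in the normalised table and 2 genes (Trp53 and Gadd45a; 30.9%) in the raw table. Trp53 and Sesn2 were higher without overlap in the normalised table, where 21.7% of all tested genes were, and 0 members were lower without overlap (8.43% of all tested genes). Trp53 was higher and Mdm2 lower without overlap in the raw table, where 19.1% and 18.5% of all tested genes were. The members' counts were thus near those of genes in general. Their median log2 fold change was -0.06 against 0.12 for all tested genes in the normalised table and -0.15 against 0.01 in the raw table, with 3 of 10 above 0 in each. Pro-B marker sums did not overlap between these groups in the raw table either. Without Ts1Rhr replicate 3, the library with Y-linked RNA, the raw log2 fold change of Trp53 was 0.47 (limma adjusted p = 0.148).

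The comparison of HMGN1 overexpression with wild type asks whether overexpressed Hmgn1, without the trisomic segment, goes with such differences. Hmgn1 RNA in HMGN1-overexpressing libraries, at 71.9 to 77.2 raw FPKM, was closer to wild type (58.5 to 67.3) than to Ts1Rhr (125.3 to 126.7). Strain and genotype cannot be told apart here either, and the wild-type libraries are those of the comparison above. Trp53 again stood apart without passing the test. It was at 42.55, 36.0 and 36.1 raw FPKM in HMGN1-overexpressing libraries, against 21.65, 29.95 and 26.4 raw FPKM in wild-type libraries. In the normalised table it was at 40.4, 49.6 and 38.0 in HMGN1-overexpressing libraries, against 24.55, 30.3 and 21.55 in wild-type libraries. All 3 HMGN1-overexpressing libraries exceeded all 3 wild-type libraries in both tables, with a wider gap than for Ts1Rhr. The log2 fold change was 0.56 (95% interval 0.21 to 0.92, limma adjusted p = 0.276) in the raw table and 0.75 (0.25 to 1.25, limma adjusted p = 0.288) in the normalised table, where it was 0.54 above the median gene. Its unadjusted p in the raw table was 0.00515, and 0.00834 in Ts1Rhr against wild type; the adjustment depends on the p-values of all tested genes.

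The targets showed no shared direction in this comparison. Mdm2 was at 37.4, 57.4 and 41.8 raw FPKM in HMGN1-overexpressing libraries, against 57.7, 49.75 and 58.6 raw FPKM in wild-type libraries. HMGN1-overexpressing replicate 2 was as high as wild type, and the other two were lower, which gave a log2 fold change of -0.30 (-0.67 to 0.07, limma adjusted p = 0.414). Cdkn1a was at 53.3, 40.45 and 49.4 raw FPKM in HMGN1-overexpressing libraries, against 47.0, 42.5 and 34.1 raw FPKM in wild-type libraries. The groups overlapped, and the log2 fold change was 0.21 (-0.15 to 0.58, limma adjusted p = 0.554). The raw log2 fold changes of the remaining targets ran between -0.41 for Pmaip1 (-0.93 to 0.11) and 0.22 for Bbc3 (-0.74 to 1.19), and each of these genes overlapped between the groups. Gadd45a was at 14.55, 10.6 and 7.75 raw FPKM in HMGN1-overexpressing libraries, against 15.1, 10.85 and 16.3 raw FPKM in wild-type libraries, a log2 fold change of -0.38 (-1.01 to 0.24).

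Limma called 0 of the 10 genes in both tables, against 0.0919% of all tested genes in the normalised table and 0.0368% in the raw table. Of the members only Trp53 had an unadjusted p under 0.05, in both tables, as did 11.7% of all tested genes in the normalised table and 14.6% in the raw one. Trp53 was also the one member without overlap in either table, in the higher direction, as were 16.6% of all tested genes in the normalised table and 9.81% in the raw one. No member was lower without overlap (0.8% and 8.25% of all tested genes). The median log2 fold change of the members was 0.14 against 0.21 for all tested genes in the normalised table and -0.06 against 0.01 in the raw table. HMGN1-overexpressing replicate 2, whose normalised library median of 4.09 was the highest of the 9, held the highest normalised value of 8 of the 10 members but the highest raw value of 1. Without it, the normalised log2 fold change was 0.64 for Trp53 (limma adjusted p = 0.33) and -0.49 for Mdm2 (limma adjusted p = 0.428). Over all alternatives in that table the limma adjusted p ran between 0.15 and 0.832 for Trp53 and between 0.428 and 0.986 for Mdm2.

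**Figure D2:**
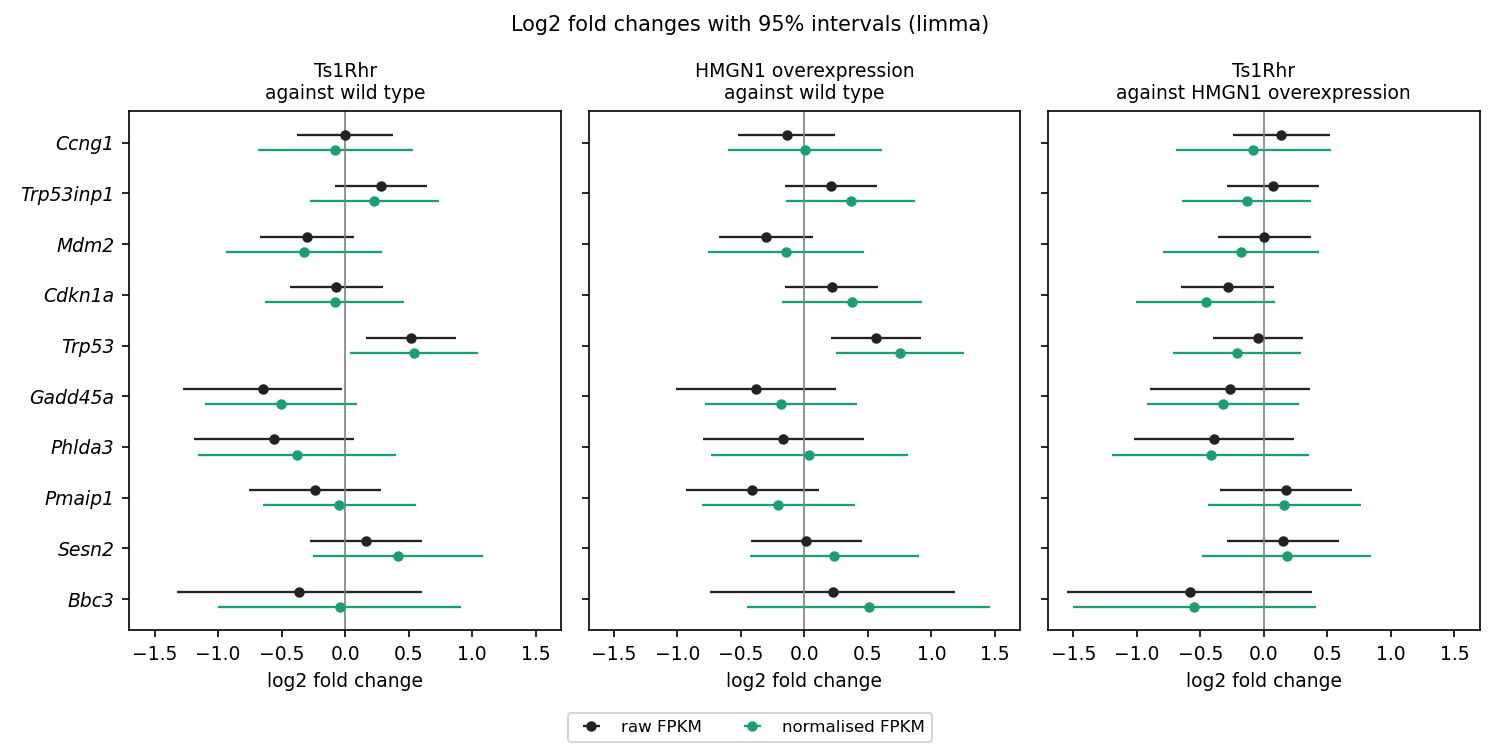
Log2 fold changes of the 10 genes (points) with 95% intervals (lines) from limma in the 3 comparisons, for raw and normalised FPKM. Against wild type the intervals of Trp53 lie above 0 in both mutant groups and both tables, that of Gadd45a lies below 0 in Ts1Rhr in the raw table, and every other interval spans 0.

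Between the mutant groups, which differ in strain by their labels, no member passed the test. Trp53 differed by -0.04 on the log2 scale (Ts1Rhr against HMGN1 overexpression; 95% interval -0.40 to 0.31) in the raw table and by -0.21 (-0.71 to 0.30) in the normalised table. Mdm2 differed by 0.00 (-0.36 to 0.37) in the raw table. The difference farthest from 0 was that of Bbc3, at 2.32, 1.16 and 1.52 raw FPKM in Ts1Rhr libraries, against 4.41, 2.495 and 1.32 raw FPKM in HMGN1-overexpressing libraries. The groups overlapped and the intervals were wide, with log2 fold changes of -0.58 (-1.55 to 0.38) in the raw and -0.55 (-1.505 to 0.41) in the normalised table. Phlda3 differed by -0.39 (-1.03 to 0.24) in the raw and -0.42 (-1.20 to 0.36) in the normalised table, with overlap. Cdkn1a was the one member whose groups did not overlap, in the normalised table. It was at 38.3, 36.0 and 41.1 normalised FPKM in Ts1Rhr libraries, against 51.1, 55.9 and 51.5 normalised FPKM in HMGN1-overexpressing libraries, with all Ts1Rhr libraries lower, as 6.6% of all tested genes were; 0 members were higher without overlap (1.79%). Its raw values overlapped, for Ts1Rhr replicate 3 exceeded HMGN1-overexpressing replicate 2. The log2 fold change of Cdkn1a was -0.46 (-1.01 to 0.09, limma adjusted p = 0.9885) in the normalised table and -0.28 (-0.65 to 0.08, limma adjusted p = 0.618) in the raw table. No member separated in the raw table, where 6.89% of all tested genes were higher and 5.99% lower without overlap. Limma called 0 of the 10 genes and 0% of all tested genes in both tables, and 0 members had an unadjusted p under 0.05, against 4.37% of all tested genes in the normalised table and 8.85% in the raw one.

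Expressing each target per Trp53 transcript within a library, as a ratio of FPKM, removes a scaling that both genes share. In the raw table the ratio of Mdm2 to Trp53 was 1.175, 1.31 and 1.16 in Ts1Rhr libraries and 0.878, 1.595 and 1.16 in HMGN1-overexpressing libraries, against 2.66, 1.66 and 2.22 in wild-type libraries. Neither mutant group overlapped wild type, and the same held in the normalised table. The mean ratio was 1.22 ± 0.082 in Ts1Rhr, 1.21 ± 0.361 in HMGN1-overexpressing and 2.18 ± 0.502 in wild-type libraries (SD, n = 3 each). The ratio of Gadd45a to Trp53 behaved alike, at 0.202 to 0.326 in Ts1Rhr and 0.215 to 0.342 in HMGN1-overexpressing libraries, against 0.362 to 0.696 in wild-type libraries. The ratio of Cdkn1a to Trp53 was 0.886 to 1.16 in Ts1Rhr and 1.12 to 1.37 in HMGN1-overexpressing libraries, against 1.29 to 2.17 in wild-type libraries, so that only Ts1Rhr was clear of wild type. In all, 5 of the 9 target ratios were lower without overlap in Ts1Rhr and 6 of 9 in HMGN1 overexpression against wild type in the raw table. Because Trp53 is the denominator and was higher in both mutant groups, 43.2% and 55.8% of all tested genes had such a lower ratio too, and the targets' shares were near these. In the normalised table the counts were 3 of 9 (36% of all tested genes) for Ts1Rhr and 5 of 9 (49.1%) for HMGN1 overexpression. None of the 9 ratios was lower without overlap in Ts1Rhr than in HMGN1 overexpression, as 5.07% of all tested genes were in the raw table and 3.95% in the normalised one. Some separations from wild type in the raw table were near ties. The ratio of Bbc3 to Trp53 was 0.05707 in Ts1Rhr replicate 1, against 0.05711 in wild-type replicate 3. That of Sesn2 was 0.1299 to this precision in both HMGN1-overexpressing replicate 2 and wild-type replicate 3. The ratios are given as descriptions without a test.

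**Figure D3:**
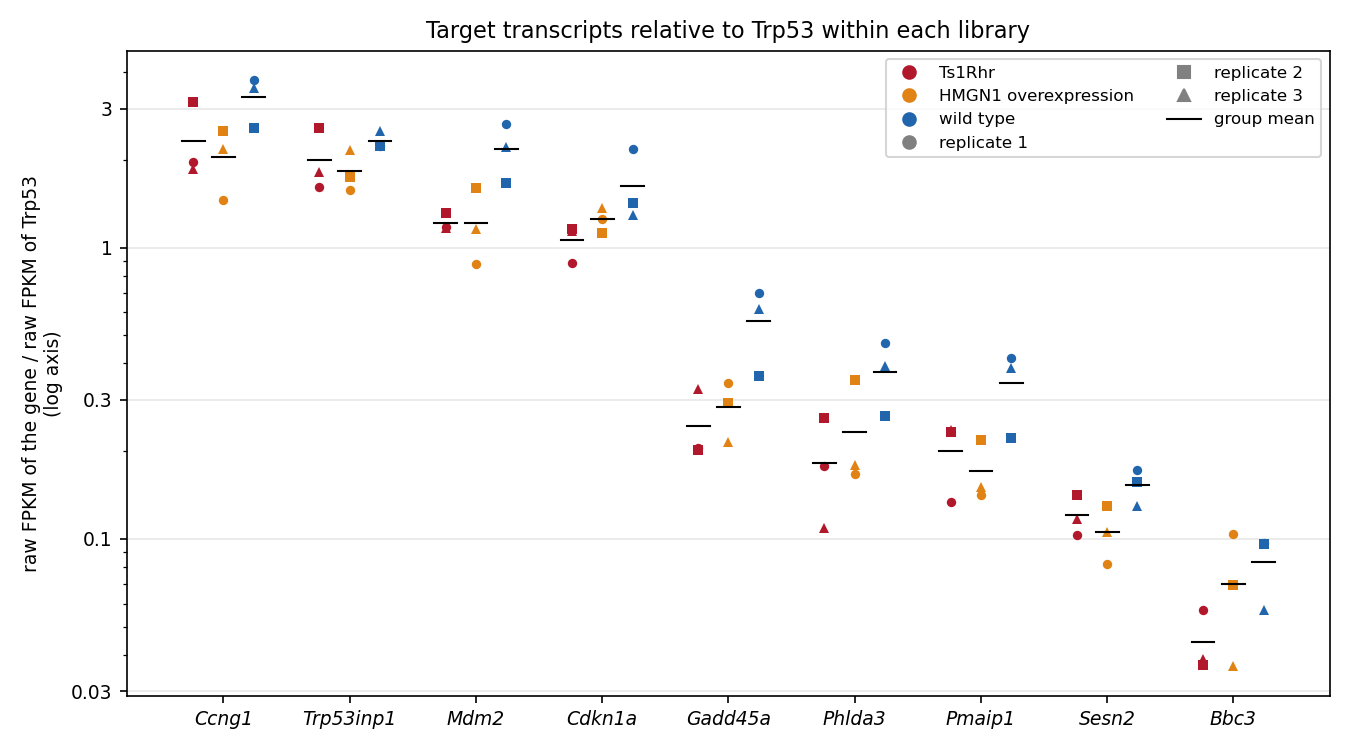
Raw FPKM of each target divided by the raw FPKM of Trp53 in the same library, on a log axis, with 1 symbol per library and a bar at the group mean. The ratios of Mdm2 and Gadd45a in the 6 mutant libraries lie below those of the 3 wild-type libraries. The ratios of Trp53inp1 lie closer together, with means of 2.005 in Ts1Rhr, 1.83 in HMGN1-overexpressing and 2.32 in wild-type libraries. For Trp53inp1 the HMGN1-overexpressing libraries, at 1.57 to 2.17, still lie below wild type, at 2.22 to 2.51, and Ts1Rhr overlaps wild type.

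Over the 9 libraries the targets did not follow Trp53. Pearson's r with Trp53, on log2(raw FPKM + 0.1), ran from -0.645 for Mdm2 to 0.56 for Trp53inp1, with 0.202 for Cdkn1a. Among the 5 tested genes most like Trp53 in this measure were Dgcr2 (r = 0.961), Men1 (0.96), Usp22 (0.948) and Ncoa5 (0.947). Most like Mdm2 were Abhd15 (0.957), Prr5l (0.951), Maoa (0.95), Nadk (0.95) and Dennd5a (0.944), and most like Cdkn1a were Nfkbil1 (0.971), Trmt2a (0.941), Mrps16 (0.94), Zdhhc4 (0.933) and Tmem223 (0.913). Maoa, which encodes monoamine oxidase A, averaged 58.5, 56.7 and 104.4 raw FPKM in Ts1Rhr, HMGN1-overexpressing and wild-type libraries. These values describe 9 libraries that share the group differences and each library's scaling, and they are the highest among all tested genes outside the members.

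A wider list of 28 other known p53 targets, of which 25 were tested, moved in both directions in the raw table of Ts1Rhr against wild type. Limma called 2 higher and 3 lower, against 4.29% and 4.56% of all tested genes. Gdf15, a secreted stress cytokine, fell to 17.0 ± 1.98 raw FPKM in Ts1Rhr, against 46.5 ± 6.43 in wild type (SD, n = 3 each; log2 fold change -1.44, limma adjusted p = 0.0323). The stress-induced kinase gene Plk2 fell to 50.5 ± 2.94 raw FPKM in Ts1Rhr, against 93.2 ± 19.4 in wild type, and the sugar reductase gene Dcxr to 11.5 ± 2.61 raw FPKM, against 20.2 ± 3.62 (limma adjusted p = 0.0374 and 0.0452). Gtse1 and Ckap2, both of which are also expressed mainly in dividing cells, rose to 35.95 ± 4.19 and 18.5 ± 4.24 raw FPKM in Ts1Rhr, against 20.6 ± 3.34 and 10.4 ± 1.77 in wild type (limma adjusted p = 0.0325 and 0.0445). The list's median log2 fold change was 0.02, against 0.01 for all tested genes.

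Of 26 genes that regulate p53 or signal to it, limma called 2 higher and none lower in this comparison in the raw table, where 4.29% of all tested genes were called higher and 4.56% lower. Chek1 and Atr, kinases of the replication stress checkpoint, rose to 20.5 ± 3.31 and 13.2 ± 1.74 raw FPKM in Ts1Rhr, against 10.7 ± 2.44 and 8.29 ± 0.564 in wild type (limma adjusted p = 0.0355 and 0.03795). Of 16 cell cycle genes that p53 is known to lower through p21 and the DREAM repressor complex, limma called 7 higher and none lower in Ts1Rhr against wild type, against the same shares of all tested genes (4.29% and 4.56%). Cenpf, Bub1b, Mybl2 and Top2a, which serve the kinetochore, the spindle checkpoint, cell cycle transcription and chromosome untangling, rose by 0.91, 0.89, 0.86 and 0.83 on the log2 scale (limma adjusted p between 0.034 and 0.046). Top2a was at 442.2 ± 64.5 raw FPKM in Ts1Rhr, against 252.9 ± 62.7 in wild type. All 16 had a log2 fold change above 0, with a median of 0.69, against 0.01 for all tested genes; Cdkn1a itself, at -0.07, did not pass the test.

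These calls depended on the libraries and on the settings of the fit, as did those over all tested genes. Limma called 0 genes of the 3 lists in the raw FPKM without Ts1Rhr replicate 2, Ts1Rhr replicate 3, wild-type replicate 1 or wild-type replicate 3, and 1 cell cycle gene and 2 other targets without Ts1Rhr replicate 1. Without wild-type replicate 2 it called 3 other targets, 1 regulator and 7 cell cycle genes. With all libraries kept, it called 0 genes of the 3 lists with 1 spike-in factor per library and 1, a cell cycle gene, without the intensity trend. Over all tested genes the calls numbered 1 to 3 under each of the 4 omissions that left the lists with 0. The median log2 fold change of the cell cycle genes stayed between 0.53 and 0.77 under each omission of a Ts1Rhr or wild-type library. In the normalised table limma called 0 genes of the 3 lists, with 6 of 25 other targets, 7 of 26 regulators and 8 of 16 cell cycle genes at an unadjusted p under 0.05, as were 19.5% of all tested genes, and the cell cycle median was 0.62, against 0.12 for all tested genes. Pro-B marker sums were higher and macrophage marker sums lower in Ts1Rhr than in wild type in the raw table, and their part in these differences was not tested.

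In HMGN1 overexpression against wild type limma called 0 genes of the 3 lists in either table, with 6 of 25 other targets, 2 of 26 regulators and 11 of 16 cell cycle genes at an unadjusted p under 0.05 in the raw table, as were 14.6% of all tested genes. These counts were 5, 3 and 12 in the normalised table, against 11.7% of all tested genes. The 16 cell cycle genes all had a log2 fold change above 0, with a median of 0.52 in the raw table, against 0.01 for all tested genes, and 0.68, against 0.21, in the normalised table. Ccna2, which encodes cyclin A, averaged 108.8 ± 15.3 raw FPKM in HMGN1-overexpressing and 69.9 ± 11.6 in wild-type libraries (SD, n = 3 each; limma adjusted p = 0.257). Chek1 averaged 17.3 ± 3.96 raw FPKM in HMGN1-overexpressing and 10.7 ± 2.44 in wild-type libraries (limma adjusted p = 0.292). Gdf15 averaged 25.9 ± 14.4 raw FPKM in HMGN1-overexpressing and 46.5 ± 6.43 in wild-type libraries, with overlap (limma adjusted p = 0.292).

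**Figure D4:**
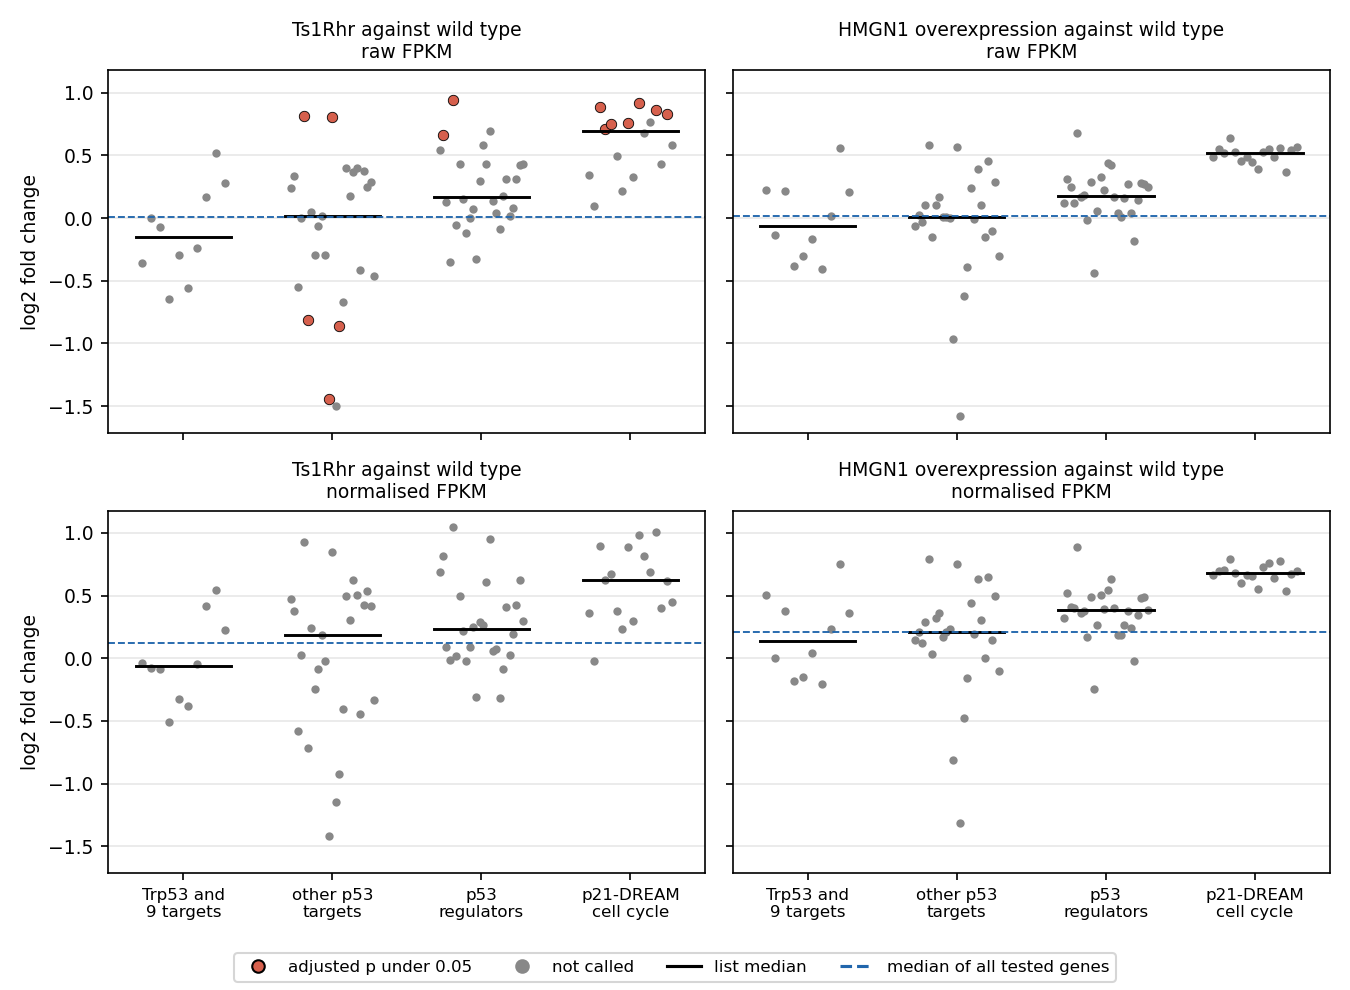
Log2 fold changes of the 10 p53 genes and of 3 related lists against wild type (1 point per gene, red where the limma adjusted p is under 0.05), with the median of each list as a bar and that of all tested genes as a dashed line. Only the raw table of Ts1Rhr against wild type holds called genes, 5 among other targets, 2 among regulators and 7 among cell cycle genes, and the median of the cell cycle list lies above that of all tested genes in each of the 4 panels.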

How the data were processed

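The authors deposited raw and normalised FPKM tables of the 9 libraries. Per the submitters' processing notes, HISAT and Cufflinks 2.0.0 were used with mouse build mm9. No source used here says how the normalised FPKM table was made: that the spike-ins were used is inferred from the labels and the values, and about 0.1 is already added to its values. FPKM are not counts, so the sequencing depth is unknown and no count test was run. Of 23398 rows, 92 spike-in rows and 27 rows with dates in place of symbols were left out. The 10878 rows averaging 1 raw FPKM or more were tested with limma 3.58.1 (R 4.3.3, intensity trend, 1 mean per group, all 9 libraries, two-sided, Benjamini-Hochberg over all tested rows, threshold 0.05) on log2(raw FPKM + 0.1) and on log2 normalised FPKM. On this scale, fold changes of low genes come out too small. The fit was tested on simulated data. Summaries used Python 3.11.15. The genes, lists and markers were chosen with earlier results of these data known. All 10 members are described; of the other lists, up to 4 called genes per direction by fold change, or the 3 smallest p-values where none was called, could be named. The ratios to Trp53 were added after seeing the data; over all tested genes, 0.1 was added to raw values first. Alternatives covered the pseudocount, filter, scaling, intensity trend, samples in the fit, replicate block and leaving out each library. One gene that the likeness rule named is not reported here.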

Additional observations from a re-analysis of the deposited data

How the results depend on the processing

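The number of p53 genes called by limma was 0 in all 6 fits and in every alternative but one, the raw table of Ts1Rhr against wild type rescaled to the same sum, which called 1 (Trp53). For single p53 genes, 925 of 978 alternative log2 fold changes kept their direction and side of the threshold, and 52 changed direction. Trp53 kept its direction against wild type under all alternatives run. The cause of the changed directions was not tested. Shifting the normalised libraries to the same median gave -0.20 for Ccng1 and -0.17 for Phlda3 in HMGN1 overexpression against wild type. In the raw table of Ts1Rhr against wild type, Cdkn1a and Ccng1 were at 0.10 and 0.17 with 1 spike-in factor per library and at 0.11 and 0.18 rescaled to the same sum. Trp53 in Ts1Rhr against HMGN1 overexpression was at 0.057 and 0.012 under the same pair of settings. Leaving out 1 library at a time gave both signs, with these lowest and highest log2 fold changes. In Ts1Rhr against wild type (normalised table) they were Pmaip1 (-0.21 to 0.071), Bbc3 (-0.38 to 0.20), Ccng1 (-0.21 to 0.061) and Cdkn1a (-0.36 to 0.15). In HMGN1 overexpression against wild type (normalised table) they were Mdm2 (-0.49 to 0.094), Ccng1 (-0.28 to 0.25), Sesn2 (-0.028 to 0.50), Phlda3 (-0.41 to 0.31) and Gadd45a (-0.35 to 0.043). In Ts1Rhr against HMGN1 overexpression (normalised table) they were Pmaip1 (-0.038 to 0.46), Sesn2 (-0.085 to 0.44), Mdm2 (-0.42 to 0.16), Ccng1 (-0.32 to 0.20) and Phlda3 (-0.69 to 0.030). In Ts1Rhr against wild type (raw table) they were Ccng1 (-0.13 to 0.10) and Cdkn1a (-0.20 to 0.030). In HMGN1 overexpression against wild type (raw table) they were Ccng1 (-0.26 to 0.0083), Bbc3 (-0.19 to 0.65), Sesn2 (-0.10 to 0.14) and Phlda3 (-0.46 to 0.015). In Ts1Rhr against HMGN1 overexpression (raw table) they were Trp53 (-0.11 to 0.072), Mdm2 (-0.13 to 0.18), Ccng1 (-0.0086 to 0.26), Trp53inp1 (-0.0079 to 0.16) and Pmaip1 (-0.012 to 0.37). Counts over all tested genes moved more: in the raw table of Ts1Rhr against wild type, 963 calls became 264 without a filter, 103 without the intensity trend, 113 with 1 spike-in factor, 314 with the replicate block and 1 to 1276 when a library was left out, and the rescaling to the same sum changed the split to 710 higher and 234 lower. In the normalised table, the 62 calls became 8 without a filter, 267 with only the 2 groups, 119 with the replicate block, 693 shifted to the same median (251 higher, 442 lower) and 4 to 203 when a library was left out. Against wild type, HMGN1 overexpression had 10 calls in the normalised and 4 in the raw table, with 1 to 19 and 0 to 54 under the alternatives, and the mutant groups had 0 calls between them, with up to 5 and up to 41. Deviations of same-numbered replicates from their group means correlated at -0.132 to 0.156 in the normalised table. Those of differently numbered replicates correlated at -0.284 to 0.211. With 3 libraries per group these correlations cannot exclude a shared litter, batch or day, and the labels do not tie equal numbers to any of these. With the replicate block 0 p53 genes were called in every fit. In the raw table of Ts1Rhr against wild type the block left 1 other target, 0 regulators and 2 cell cycle genes called. Without it these counts were 5, 2 and 7. The ratio of Sesn2 to Trp53 in Ts1Rhr against wild type was -0.35 on the log2 scale in the raw and -0.13 in the normalised table. FPKM without counts set no detection limit, and 3 libraries per group limit the precision.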

Other observations

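Between the mutant groups the wider p53 lists also held 0 limma calls in either table, with 4 of 25 other targets, 2 of 26 regulators and 2 of 16 cell cycle genes at an unadjusted p under 0.05 in the raw table, as were 8.85% of all tested genes. Kat5, an acetyltransferase that modifies p53, averaged 25.7 ± 3.17 raw FPKM in Ts1Rhr and 40.8 ± 7.83 in HMGN1-overexpressing libraries (SD, n = 3 each; log2 fold change -0.66, limma adjusted p = 0.492). Bax, a death effector and p53 target, averaged 40.3 ± 9.08 raw FPKM in Ts1Rhr and 57.02 ± 7.13 in HMGN1-overexpressing libraries (limma adjusted p = 0.537), with overlap. Birc5, which encodes the mitotic protein survivin, averaged 115.8 ± 25.4 raw FPKM in Ts1Rhr and 156.7 ± 15.3 in HMGN1-overexpressing libraries (limma adjusted p = 0.551), without overlap.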
